A study of Arabidopsis thaliana with 12 samples.

Results

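Transcript levels of whole Arabidopsis thaliana seedlings without bacteria were compared between the gp1-2 line and wild type, 3 libraries against 3 of the 12 in the series. Wild type is the Col-0 accession, and gp1-2 is the T-DNA insertion line SAIL_209_D07 in that accession. Both genotypes grew on agar medium with 1% sucrose at 22 °C, with 16 h of light and 8 h of dark. Seedlings were moved to a divided plate at 5 days, kept there for 2 days with no bacterium in the other compartment, and harvested whole at 7 days. The other 6 libraries are from the same genotypes exposed for those 2 days to airborne compounds of the bacterium GB03. They are used to measure the same genotype difference in separate plants. All 12 libraries also share 1 fit, so these 6 enter the filter on low counts and the estimate of spread. The labels call the 3 libraries of each group biological replicates. The series title names a stearoyl-ACP desaturase, but the labels name no locus for the insertion, so no disrupted transcript could be used to check the genotype. gp1-2 stands here for a single insertion line.

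The libraries were selected by their titles, and every one of the 33602 genes in the table was considered, of which 20736 passed the filter on low counts and were tested. Total counts were 11158051 to 14999793 in wild type and 17908408 to 18725561 in gp1-2, so every gp1-2 library was deeper than every wild-type library. Levels are given as CPM, the count scaled to the normalised library total, and compare a gene between samples, not genes with each other. A gene is called higher or lower where the adjusted p of edgeR's quasi-likelihood test is under 0.05. The ± after a log2 fold change is that change over the root of the test's F, with 3 libraries a group. It approximates a standard error, and for genes near 0 counts in a group it can be smaller than the counting error alone. In whole seedlings, fewer cells of a type and less RNA per cell cannot be told apart.

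Stearoyl-ACP desaturases of the plastid place the first double bond into stearic acid and so make oleic acid. FAB2, also named SSI2, is the main enzyme of this family in leaves, and mutants of it are known from earlier work to be small and to express defence genes without a pathogen. Salicylic acid is the hormone of defence against biotrophic pathogens in leaves. It is made mostly through isochorismate, is amplified by the lipase-like proteins EDS1 and PAD4, is read by the NPR receptors and ends in the secretion of pathogenesis-related (PR) proteins.

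Differences between the genotypes spread over a large share of the genes. Of the genes tested, 7723 were called, 4156 higher and 3567 lower in gp1-2, which is 37.2% called either way, 20.0% called higher and 17.2% called lower. Counts of called members in the lists below are to be read against these shares. The rises were larger than the falls. At a difference of at least 1 on the log2 scale there were 1506 called rises and 411 called falls, at 3 or more 434 and 13, and at 5 or more 204 and 4. The median over all genes tested was -0.02. Upper-quartile scaling moved that median to -0.11 and changed the split to 3406 higher and 4769 lower, so the majority of calls moved from rises to falls with that scaling. Along the first principal component of the 6 libraries, which carried 81.8% of the variance against 7.14% for the next, wild type lay on one side and gp1-2 on the other.

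**Figure D1:**
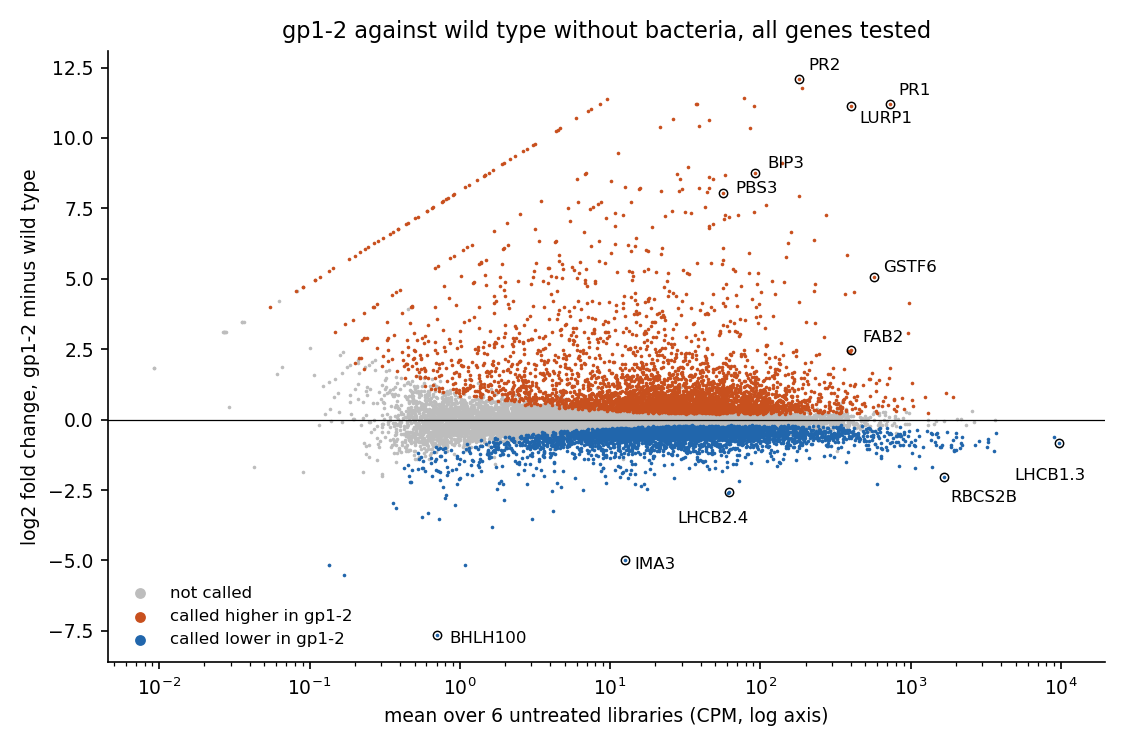
Each point is 1 of the 20736 genes tested, with its mean over the 6 untreated libraries in CPM on a log axis and its log2 fold change, gp1-2 minus wild type. Orange points were called higher and blue points lower; the rises reach past 10 while few falls pass -3, and circles mark genes named in the text.

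Of the 7 stearoyl-ACP desaturase genes 2 were higher, 2 lower and 3 not called. FAB2 (AT2G43710) was at 119.8, 119 and 129 CPM in the wild-type libraries and at 586, 705 and 746 CPM in gp1-2. Every gp1-2 value was more than 4 times every wild-type value, and the log2 fold change was 2.47 ± 0.11 (edgeR adjusted p 1e-10). Whether the insertion lies in this gene is not given in the labels, and gene counts do not show whether these transcripts are full length. AAD3, a relative of FAB2, rose from 5.75, 6.77 and 7.46 to 10.5, 11.4 and 12.8 CPM (0.80 ± 0.13), without overlap of the groups. AAD5, another relative, was at 83.3, 75.3 and 73.5 CPM and then at 69.2, 68.7 and 75.2 CPM, overlapping ranges with no call (-0.12 ± 0.08). AAD1 (-0.35 ± 0.12, edgeR adjusted p 0.034) and AAD6 (-0.56 ± 0.21, edgeR adjusted p 0.0498) were called lower, but each call was lost in 7 of 17 alternatives. AAD1 lost it without wild-type replicate 1 (-0.34) or 3 (-0.27) and without gp1-2 replicate 1 (-0.35) or 3 (-0.31). AAD6 lost it without wild-type replicate 3 (-0.29) and without gp1-2 replicate 1 (-0.58) or 2 (-0.37).

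None of the genes around FAB2 on chromosome 2 showed a rise of that size. IQD14, the third gene away on one side, which encodes a calmodulin-binding protein, was called higher by 0.43 ± 0.12 (edgeR adjusted p 0.0099), a call lost without wild-type replicate 1 (0.33). AT2G43690, AT2G43700 and AT2G43720 were not called, and AT2G43730 and AT2G43740 had too few counts to be tested.

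Other genes of fatty acid and glycerolipid synthesis were mostly lower in gp1-2. Of 19 tested, 15 were lower, 1 was higher and 3 were not called, with a median of -0.49. KAS1 and FAB1, condensing enzymes of chain elongation, fell by similar amounts (-0.63 ± 0.08 and -0.64 ± 0.08). The list's largest fall was that of FAD8, a plastid desaturase that makes trienoic fatty acids and is known in leaves for low temperatures. It was at 122, 123 and 136 CPM in wild type and at 60.8, 56.8 and 52.5 CPM in gp1-2, so the groups did not overlap. The log2 fold change was -1.16 ± 0.09 (edgeR adjusted p 4.8e-08). ATS1, the acyltransferase that joins oleate to glycerol-3-phosphate in the plastid, went from 74.8, 75.3 and 86.4 to 48.9, 52.1 and 49.7 CPM (-0.65 ± 0.08), and GLY1, the enzyme that makes glycerol-3-phosphate from dihydroxyacetone phosphate, fell too (-0.57 ± 0.09). GLI1, the glycerol kinase that makes glycerol-3-phosphate from glycerol, was the member that rose, from 99.0, 102 and 105 to 159, 157 and 166 CPM (0.66 ± 0.09, edgeR adjusted p 1.7e-05).

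The 250 bases before the annotated start of 4 genes are shown, because these genes stand for the groups with the clearest differences: a secreted PR protein (PR2), a salicylic acid regulator (WRKY70), an endoplasmic reticulum chaperone (BIP3) and a light-harvesting protein (LHCB2.4). They were read 5′ to 3′ on the gene's strand from assembly TAIR10.1 with its RefSeq annotation, and capitals mark any of the 3 motifs named after them, on either strand.
PR2, chr3:21189968-21190217, minus strand: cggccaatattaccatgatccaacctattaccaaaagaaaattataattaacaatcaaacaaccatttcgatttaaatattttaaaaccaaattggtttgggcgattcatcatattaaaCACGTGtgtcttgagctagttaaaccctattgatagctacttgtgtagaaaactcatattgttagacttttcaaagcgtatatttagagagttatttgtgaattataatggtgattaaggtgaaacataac
WRKY70, chr3:20910624-20910873, minus strand: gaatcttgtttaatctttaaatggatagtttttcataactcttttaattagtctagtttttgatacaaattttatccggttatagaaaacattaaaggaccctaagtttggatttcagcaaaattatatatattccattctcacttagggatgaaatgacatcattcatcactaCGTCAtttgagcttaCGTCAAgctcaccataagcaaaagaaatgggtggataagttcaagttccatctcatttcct
BIP3, chr1:2931851-2932100, minus strand: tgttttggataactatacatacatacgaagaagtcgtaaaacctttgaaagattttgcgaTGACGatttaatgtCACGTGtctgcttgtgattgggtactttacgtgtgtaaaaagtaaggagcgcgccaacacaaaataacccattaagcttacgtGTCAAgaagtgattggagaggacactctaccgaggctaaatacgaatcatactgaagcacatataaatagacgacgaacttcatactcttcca
LHCB2.4, chr3:10255656-10255905, plus strand: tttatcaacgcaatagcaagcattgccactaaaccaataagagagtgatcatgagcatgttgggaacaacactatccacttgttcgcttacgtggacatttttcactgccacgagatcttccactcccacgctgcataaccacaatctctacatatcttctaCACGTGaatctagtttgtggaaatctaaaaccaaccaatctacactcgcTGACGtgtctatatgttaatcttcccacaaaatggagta
TTGAC is the core of the element that WRKY factors bind, TGACG that of an element bound by bZIP factors, and CACGTG is the G-box. The first pair of motifs overlaps where TTGACG occurs. The WRKY70 window holds the first motif at 60 bases before the start, overlapping the bZIP element at 61, and that element again at 76 bases. The PR2 window holds only the G-box, at 131 bases. BIP3 has the bZIP element at 190, the G-box at 176 and the WRKY element at 93 bases, and LHCB2.4 has the G-box at 88 and the bZIP element at 39 bases. Of 14267 genes tested with a full window, 46.3% hold TTGAC, 18.3% TGACG and 7.18% CACGTG. The WRKY element TTGAC was present in 8 of 12 defence WRKY genes with a full window, 7 of 13 of the largest rises, 5 of 13 of the largest falls, 5 of 8 endoplasmic reticulum chaperones, 4 of 12 light-harvesting genes, 2 of 8 photosystem genes and 4 of 12 iron regulators. The G-box CACGTG was present in 1 of 12, 1 of 13, 5 of 13, 4 of 8, 3 of 12, 1 of 8 and 3 of 12 of these, in the same order. For the bZIP element TGACG the numbers were 3 of 12, 5 of 13, 6 of 13, 4 of 8, 4 of 12, 4 of 8 and 2 of 12. These are matches of letters only.

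In the salicylic acid pathway, the main genes of the isochorismate branch rose, and those of the phenylalanine branch showed 1 small rise and 1 fall. ICS1, the isochorismate synthase of the pathogen response, was at 8.85, 7.78 and 9.08 CPM in wild type and at 165, 171 and 169 CPM in gp1-2, a rise of 4.30 ± 0.12 (edgeR adjusted p 2.9e-13). EDS5, the exporter of isochorismate from the plastid, rose from 6.29, 5.10 and 7.36 to 67.1, 62.3 and 70.3 CPM (3.43 ± 0.12). PBS3, which couples isochorismate to glutamate, rose most in this branch, from 0.406, 0.335 and 0.574 to 127, 109 and 103 CPM (8.03 ± 0.21). All 3 genes were at or under 10 CPM in each wild-type library and above 60 in each gp1-2 library. ICS2, the minor isochorismate synthase, went the other way (-0.89 ± 0.22, edgeR adjusted p 0.0049), a call lost without all libraries of replicate 2 (-0.88). The transcription factors that activate ICS1 rose as well: SARD1 from 8.85, 13.7 and 9.66 to 217, 270.2 and 227 CPM (4.46 ± 0.19) and CBP60G from 29.2, 15.4 and 8.22 to 242, 247 and 191 CPM (3.66 ± 0.29).

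Phenylalanine ammonia-lyases open the other route. PAL1 was at 333, 286 and 298 CPM and then at 376, 358 and 353 CPM, a difference of 0.25 ± 0.09 (edgeR adjusted p 0.041) that was lost in 11 of 17 alternatives, among them every fit without a single library (0.20 to 0.26) other than wild-type replicate 1. PAL2 (0.03 ± 0.10) and PAL4 (-0.01 ± 0.13) were not called, PAL3 was lower (-0.79 ± 0.14), and EPS1, the last enzyme after PBS3, was not called (0.30 ± 0.23). In all, 6 of 11 synthesis genes tested were higher, 2 lower and 3 not called.

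Genes that remove or modify salicylic acid rose in 4 of 5 tested. DMR6, which hydroxylates salicylic acid, rose from 12.3, 11.3 and 8.99 to 173, 185 and 167 CPM (4.00 ± 0.11), and DLO1, its close relative, from 0.744, 0.335 and 0.478 to 29.2, 38.2 and 35.5 CPM (6.02 ± 0.21). The glucosyltransferase UGT76B1 was higher by 0.97 ± 0.11, UGT74F2 by 0.66 ± 0.12, and UGT74F1 was lower (-0.62 ± 0.17); the last 2 are similar neighbours that could share reads. The call of UGT74F1 was lost without all libraries of any 1 replicate number (-0.69 to -0.52). BSMT1, which makes the methyl ester, had no count in these 6 libraries. N-hydroxypipecolic acid is the mobile signal of systemic resistance, and its 3 genes were all higher. ALD1, the aminotransferase that starts the route, was at 0.608, 0.201 and 0.0956 CPM in wild type and 39.2, 34.1 and 40.5 CPM in gp1-2 (6.84 ± 0.23). FMO1, the final hydroxylase, was at 0.406, 0.603 and 0.191 and 62.0, 70.2 and 75.1 CPM (7.33 ± 0.26), and SARD4, the reductase between them, at 13.6, 12.7 and 14.7 and 122, 118 and 124 CPM (3.15 ± 0.09). The ranges of both genotypes lay far apart in each, and SARD4 alone had a clear level in wild type.

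**Figure D2:**
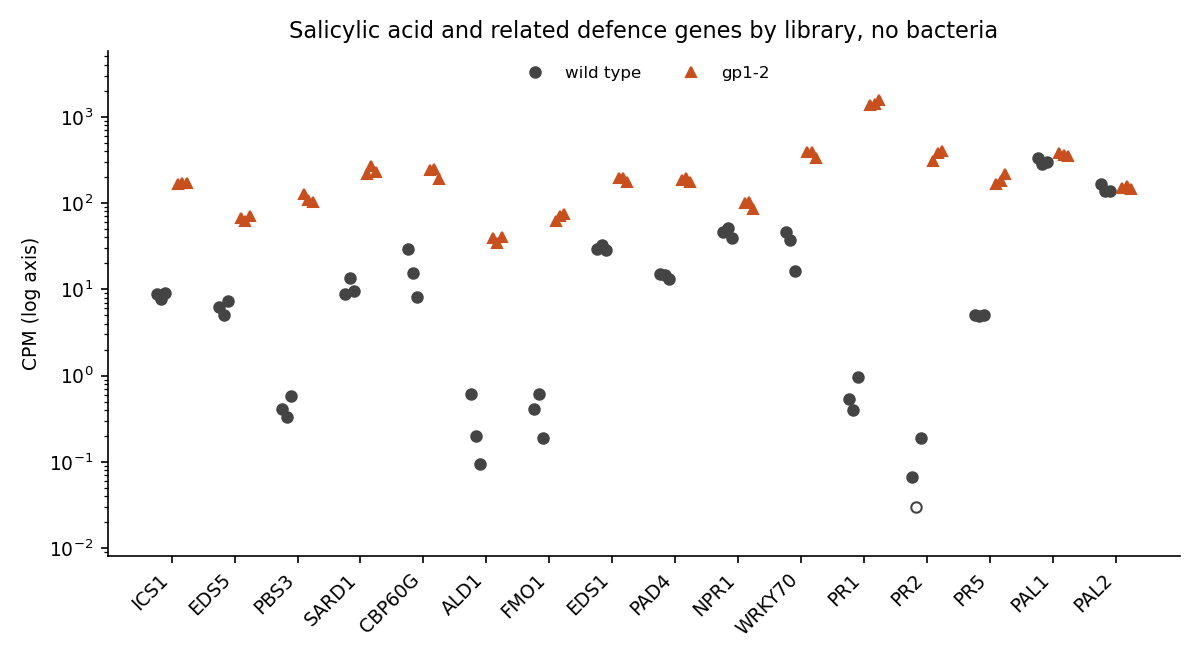
Each point is 1 untreated library, with the level of the named gene in CPM on a log axis, circles for wild type and triangles for gp1-2, 3 each. The open circle is a count of 0, drawn at 0.03; the groups are apart for each gene except PAL2.

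All 9 genes of the EDS1 node were higher, with a median of 1.65. EDS1 itself rose from 29.7, 32.6 and 28.9 to 194, 193 and 177 CPM (2.63 ± 0.09), its partner PAD4 from 14.9, 14.8 and 13.2 to 186, 194 and 174 CPM (3.69 ± 0.12), and the other partner SAG101 from 18.6, 22.7 and 23.2 to 92.4, 105 and 93.0 CPM (2.17 ± 0.10). The helper receptors that act with these pairs rose too, NRG1.1 by 0.52 ± 0.13, NRG1.2 by 1.65 ± 0.11 and the 3 ADR1 genes by 0.87 to 1.47. EDS1 and EDS1B are near copies, so their shared reads make the split between them uncertain. Of 11 genes of salicylic acid perception 8 were higher and 3 were not called. The receptor gene NPR1 went from 45.6, 51.2 and 39.4 to 100.3, 102 and 85.3 CPM (1.08 ± 0.11), NPR3 was higher by 1.5 ± 0.13 and NPR4 by 1.14 ± 0.11. NIMIN1 and NIMIN2, small proteins that bind NPR1 and damp its output, rose as well. NIMIN2 was at 1.55, 0.939 and 1.43 CPM and then 42.8, 47.6 and 52.5 CPM (5.19 ± 0.16). NIMIN1 had 2 counts over the wild-type libraries against 1112 (ratio 405, 95% exact interval 112 to 3349, which covers counting error only). The TGA factors that NPR1 works with were divided: TGA3 (0.76 ± 0.08) and TGA5 (0.68 ± 0.13) were higher, while TGA1 (0.02 ± 0.09), TGA2 (0.11 ± 0.12) and TGA6 (0.17 ± 0.13) were not called.

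The outputs of the pathway were among the largest differences in the data. PR1, a secreted protein used as the marker of salicylic acid signalling, was at 0.541, 0.402 and 0.956 CPM in wild type and at 1362, 1402 and 1579 CPM in gp1-2. The groups did not overlap, with a fitted log2 difference of 11.22 ± 0.21 (edgeR adjusted p 2.8e-14). PR2, a glucanase, was at 0.0676, 0 and 0.191 CPM and then at 303, 385 and 402 CPM. That is 3 counts over the wild-type libraries against 20050, a ratio of 4869 with a 95% exact interval of 1666 to 23610. PR5, a thaumatin-like protein, rose from 5.07, 4.96 and 5.07 to 165, 179 and 218 CPM (5.22 ± 0.17) and had nearly equal wild-type values. All 3 were near 0 or low in every wild-type library and above 160 CPM in every gp1-2 library.

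The 15 largest rises among genes with a mean of at least 5 CPM were all at or near 0 in wild type. Ranking by fold change picks such genes, so that low level is no separate result. Besides PR1 and PR2 they held LURP1, named for its late rise upon infection, at 0.270, 0.335 and 0.478 CPM in wild type and 817, 859 and 719 CPM in gp1-2 (11.13 ± 0.24). PCR1, a plasma membrane protein known for cadmium resistance, went from 0, 0.134 and 0.191 to 343, 379.8 and 412 CPM (11.79 ± 0.28). PNP-A, a secreted peptide related to expansins, had 2 counts over the wild-type libraries against 8591 (ratio 3130, 95% exact interval 866 to 25850). The group also held cell-surface proteins. WAK3, a wall-associated kinase, had 1 count against 4200 (ratio 3060, interval 549 to 120900). CRK37, a cysteine-rich receptor-like kinase, and RLP39, a receptor-like protein, had no count in wild type and were at least 256.5-fold and at least 192-fold higher, against a floor of 3 counts over the group. AT2G04495, the non-coding RNA AT3G15536 and the cytochrome P450 gene CYP76C5 were likewise without a count in wild type, and their rises were at least 228-fold, 200.1-fold and 160-fold. TAT3, a tyrosine aminotransferase, AT4G03450, with ankyrin repeats, AT3G22235, with a cysteine-rich membrane module, and AT3G28510, an ATPase, make up the rest. Of all called rises, 59 had no count in the wild-type libraries, and 3 called falls had none in gp1-2. Every wild-type library was shallower than every gp1-2 library, which favours counts of 0 in wild type. The share without a count over all genes tested was not computed. CRK and RLP genes lie in clusters of similar copies, so the share of reads between neighbours is uncertain.

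All 12 WRKY factors of the defence list were higher, with a median of 3.38. In the whole family of 67 tested, 35 were higher, 3 lower and 29 not called, with a median of 0.59. WRKY70, an activator of salicylic acid responses, went from 46.1, 37.7 and 16.4 to 386, 388 and 337 CPM (3.46 ± 0.25), and its relative WRKY54 from 2.16, 2.08 and 1.05 to 69.9, 65.9 and 60.7 CPM (5.16 ± 0.17). WRKY46 rose from 7.77, 5.16 and 2.77 to 151, 159 and 121 CPM (4.73 ± 0.24) and WRKY18 from 42.1, 66.6 and 55.8 to 171, 251 and 228 CPM (1.98 ± 0.17). WRKY33, the regulator of camalexin genes, and WRKY40 showed the smallest rises of the list, 0.93 ± 0.24 and 1.49 ± 0.34. Both calls were lost without all libraries of replicate 2 (0.89 and 1.33), as were those of ZAT10 (1.36) and ERF2 (1.26) among genes of handling responses. The spread within wild type was wide for several of them: WRKY40 was at 107, 59.1 and 25.8 CPM in wild type and 189.6, 205 and 148 CPM in gp1-2. Replicate 1 was the highest and replicate 3 the lowest wild-type library for WRKY40, WRKY46, WRKY53, WRKY70, CBP60G and WRKY33. The same order was seen in both genotypes for ORA47, ZAT10, ZAT12 and ERF2, members of a list of 9 genes known to respond within minutes to handling. ZAT10, a zinc finger factor, was at 102, 52.2 and 25.1 CPM in wild type and 223, 176 and 105 CPM in gp1-2. In that list 3 genes were called higher, 3 lower and 3 not, its summed level was 694 to 1126 CPM in wild type and 841 to 1071 CPM in gp1-2, and no member was at 0 throughout. Without wild-type replicate 2, or without gp1-2 replicate 3, only 1 of its members was lower. Its part in the WRKY differences was not tested. The groups did not overlap for any of the 12 factors, against 47.6% of all genes tested without overlap.

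Receptors at the cell surface and inside the cell were higher in most cases. Of 13 surface receptors and partners tested, 10 rose and 3 were not called. RLP23, the receptor of a necrosis-inducing peptide, was at 0.270, 0 and 0.0956 CPM in wild type and 152, 204 and 157 CPM in gp1-2 (10.35 ± 0.29). SOBIR1, the kinase that RLP23 needs, rose from 125, 138 and 116 to 627, 697 and 667 CPM (2.39 ± 0.10), and EFR, the receptor of bacterial elongation factor, from 5.20, 7.04 and 8.70 to 23.4, 27.8 and 25.6 CPM (1.89 ± 0.18). FLS2, the flagellin receptor, was at 33.5, 42.3 and 34.6 CPM and then 34.9, 39.2 and 35.2 CPM, overlapping ranges with no call (-0.02 ± 0.12). PEPR1 and PEPR2, receptors of the plant's own danger peptides, were not called either (-0.12 ± 0.15 and 0.34 ± 0.21). RBOHD, the oxidase of the immune oxidative burst, was higher (1.13 ± 0.19). Inside the cell, 10 of 12 NLR receptor genes were higher and 2 were not called, with a median of 0.69. RPS2 rose most, from 8.04, 10.8 and 8.22 to 48.5, 52.0 and 37.8 CPM (2.35 ± 0.15), and ZAR1, which forms the resistosome, from 159.9, 203 and 189 to 397, 469 and 369.9 CPM (1.16 ± 0.12). Members of NLR clusters share sequence, so reads could be split among them.

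The 11 chaperones of the endoplasmic reticulum, where secreted proteins fold, were all higher, with a median of 1.3. BIP3, the stress-induced HSP70 of this compartment, rose from 0.676, 0.201 and 0.382 to 182, 187 and 187 CPM (8.75 ± 0.25, edgeR adjusted p 5.1e-13). CRT3, the calreticulin that folds EFR, rose from 59.2, 57.7 and 61.9 to 274, 302 and 284 CPM (2.27 ± 0.08), and the protein disulphide isomerase gene PDIL1-2 from 79.0, 76.8 and 84.1 to 371, 363 and 429 CPM (2.28 ± 0.09). CNX1, calnexin, went from 338, 318 and 372 to 839, 835 and 852 CPM (1.3 ± 0.08). BIP1 (1.27 ± 0.08) and BIP2 (1.49 ± 0.09) are near-identical, so the split of reads between them is uncertain.

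Camalexin, the indole phytoalexin of Arabidopsis, had all 7 of its genes higher. PAD3, which catalyses the last step, rose from 6.02, 6.71 and 5.26 to 116, 129.8 and 147 CPM (4.44 ± 0.12). GSTF6, a glutathione transferase of the route, went from 37.4, 22.5 and 41.3 to 1014, 1046 and 1287 CPM (5.05 ± 0.21). CYP71A13, which makes the nitrile intermediate, was at 0, 0.201 and 0.669 CPM in wild type and 65.5, 72.8 and 95.1 CPM in gp1-2 (8.24 ± 0.35); CYP71A12 (3.80 ± 0.16) is a close copy, and CYP71A13 overlaps IMA3 on the other strand. In the indole arm of glucosinolate synthesis, which shares CYP79B2 (1.61 ± 0.13) with camalexin, 5 of 6 genes were higher, among them the regulator MYB51, from 49.8, 48.9 and 23.6 to 186, 212 and 161 CPM (2.18 ± 0.24), and CYP83B1 (1.53 ± 0.09), while the regulator MYB34 was lower (-0.46 ± 0.11), a call lost without all libraries of replicate 1 (-0.33) or 2 (-0.49). In the aliphatic arm 2 of 12 were higher, 4 lower and 6 not called, with the regulator MYB28 lower (-0.70 ± 0.11). Of all genes tested 20.0% were higher and 17.2% lower. Without wild-type replicate 1 only 2 of these were lower, and without wild-type replicate 2 or gp1-2 replicate 3 only 1 was higher. The difference between the arms was not tested.

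Genes of jasmonate, the hormone of wounding and of defence against necrotrophs, were also higher in most cases. Of 9 synthesis genes 7 were higher and 2 were not called, of 10 JAZ repressors 6 were higher and 4 were not (without wild-type replicate 1, 1 of them was lower), and of 8 output genes tested 6 were higher and 2 were not (3 higher without all libraries of replicate 2). LOX2, the chloroplast lipoxygenase that starts the route in wounded leaves, went from 125, 105 and 202 to 404, 412 and 497 CPM (1.61 ± 0.20), and OPR3, the reductase of the peroxisome, from 34.6, 41.9 and 55.6 to 97.8, 117 and 128 CPM (1.38 ± 0.14). AOS, a step between them, was not called (-0.16 ± 0.08). JAZ5 rose from 1.62, 1.61 and 3.25 to 8.65, 13.9 and 14.5 CPM (2.58 ± 0.29) and JAZ1 from 68.2, 57.7 and 38.0 to 139.8, 148 and 116 CPM (1.29 ± 0.17). Among the outputs, VSP1, a storage protein of the wound branch, was higher (1.82 ± 0.19), as were the chitin-binding PR4 (1.11 ± 0.09) and the ethylene response factor ERF1 (2.90 ± 0.44). The PDF1.2 defensins, markers of the jasmonate and ethylene branch, had too few counts to be tested except PDF1.2A, which was at 1.62, 0.0671 and 0 CPM in wild type and 0.110, 0.608 and 0.370 CPM in gp1-2 and was not called. It was called higher (3.41) once all libraries of replicate 1 were left out.

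Genes of photosynthesis were lower with narrow spread. Of 17 light-harvesting genes 16 were lower and 1 was higher (median -1.12), and all 15 nuclear photosystem subunits (-0.91) and all 5 Rubisco genes (-0.81) were lower. LHCB1.3, a chlorophyll-binding protein of photosystem II, was at 11210.0, 11679 and 14733 CPM in wild type and 6751, 7246 and 7103 CPM in gp1-2 (-0.83 ± 0.10). LHCB2.4 fell most, from 104, 97.1 and 119 to 17.1, 18.1 and 18.6 CPM (-2.57 ± 0.10, edgeR adjusted p 2.3e-11). The photosystem I subunit PSAD1 went from 1339, 1316 and 1473 to 758, 732 and 727 CPM (-0.90 ± 0.09), and the groups did not overlap. The small subunits of Rubisco fell unequally: RBCS2B from 2508, 2532 and 3014 to 576, 782 and 598 CPM (-2.04 ± 0.13) and RBCS1A from 10133, 9461 and 12868 to 6898, 6913 and 7376 CPM (-0.62 ± 0.12). LHCB1 and RBCS genes are near-identical copies, and reads shared among them make single members uncertain.

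Some green genes did not follow. LHCB1.4 rose from 373, 529 and 524 to 645, 699 and 619 CPM (0.46 ± 0.12, edgeR adjusted p 0.0064), a call lost without all libraries of replicate 1 (0.32). In chlorophyll synthesis 8 of 12 genes were lower, 3 were not called, and HEMA1, the gatekeeping reductase of the pathway, was higher, from 109, 101 and 99.3 to 156, 161 and 145 CPM (0.58 ± 0.09). PORB, which reduces protochlorophyllide in light, fell from 678, 668 and 737 to 319, 346 and 346 CPM (-1.04 ± 0.08), and GLK1, an activator of these genes, from 61.0, 66.7 and 84.4 to 33, 38.8 and 40.1 CPM (-0.92 ± 0.13). The other falls among the 15 largest include AT2G10940, a lipid-transfer protein, from 671, 828 and 1468 to 186, 206 and 219 CPM (-2.28 ± 0.21), and COR413IM1, a cold-regulated protein of the chloroplast envelope, from 25.3, 25.5 and 38.5 to 3.69, 5.80 and 6.61 CPM (-2.46 ± 0.22). AT3G16670, of the Ole e 1 family, fell from 98.7, 95.4 and 118 to 14.2, 18.9 and 17.9 CPM (-2.61 ± 0.12). The remaining members, AT1G51090, AT5G05250, BZIP34, AT2G29300, AT5G57760, AT2G34510, AT3G54830, AT1G13650 and AT5G44260, had log2 fold changes between -2.51 and -2.06.

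**Figure D3:**
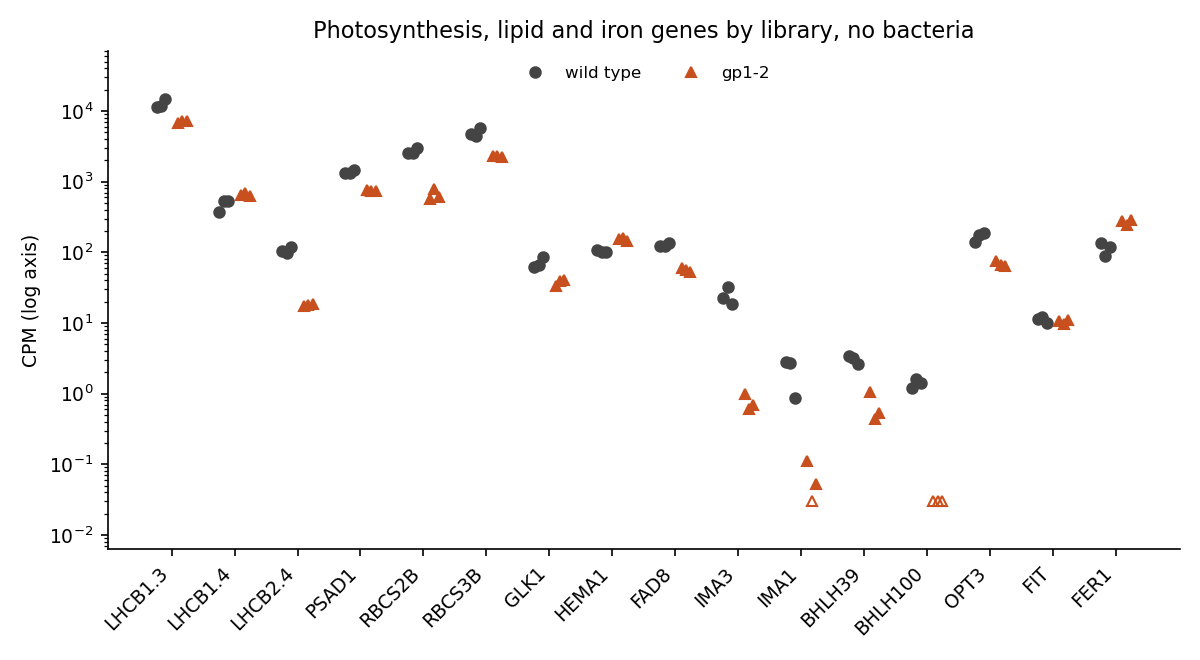
Each point is 1 untreated library, with the level of the named gene in CPM on a log axis, circles for wild type and triangles for gp1-2, 3 each. Open triangles are counts of 0, drawn at 0.03; LHCB1.4, HEMA1 and FER1 lie higher in gp1-2, FIT overlaps, and the other genes lie lower.

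The iron deficiency network was lower at its regulators. IMA peptides are mobile signals of iron shortage, the bHLH factors of subgroup Ib act under them with FIT, and IRT1 and FRO2 take up iron in the root. IMA3 showed the largest fall of the naming rule, from 22.8, 31.9 and 18.5 to 0.992, 0.608 and 0.688 CPM (-5.00 ± 0.25, edgeR adjusted p 3.8e-10). It is annotated on the opposite strand to CYP71A13, which it overlaps and which rose, and since the strand setting of the counting is not given, reads of the pair cannot be told apart. IMA1 had 90 counts over the wild-type libraries against 3 (ratio 41.2, 95% exact interval 13.7 to 203). IMA2 fell from 5.14, 3.89 and 1.24 to 0.882, 0.276 and 0.317 CPM (-2.84 ± 0.60). Of the bHLH factors, BHLH39 was at 3.45, 3.15 and 2.58 CPM and then 1.05, 0.442 and 0.529 CPM (-2.19 ± 0.39), and BHLH100 had 57 counts in wild type and none in gp1-2, at least 26.1-fold lower against the floor of 3 counts. FIT was at 11.3, 12.2 and 9.94 CPM and 10.6, 9.62 and 10.9 CPM, overlapping and not called (-0.11 ± 0.14). In all, 9 of 13 regulators were lower, 1 higher and 3 not called.

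Among genes of uptake and transport 4 of 10 were lower, 1 was higher and 5 were not called. IRT1, the iron transporter of root epidermis, fell from 1.28, 1.41 and 1.34 to 0.110, 0.221 and 0 CPM (-3.54 ± 0.87, edgeR adjusted p 0.0045), while the reductase FRO2 was not called (-0.29 ± 0.60), and both were under 2 CPM in every untreated library. OPT3, which moves iron in the phloem, fell from 141, 175 and 188 to 74.1, 66.6 and 63.9 CPM (-1.3 ± 0.11), and ZIF1, a vacuolar transporter of nicotianamine, from 43.8, 61.3 and 49.4 to 14.9, 17.1 and 15.6 CPM (-1.70 ± 0.11). The ferritins FER1 and FER4, plastid proteins that store iron, rose, FER1 from 133, 89.6 and 119 to 279, 247 and 290.2 CPM (1.25 ± 0.13) and FER4 by 0.65 ± 0.11. FER2 and FER3 were not called.

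Senescence genes rose in 9 of 11 tested. SAG13, induced early in leaf senescence and in defence, was at 0.338, 0 and 0 CPM in wild type and 50.6, 52.2 and 64.5 CPM in gp1-2 (8.73 ± 0.32). NYE1, the magnesium dechelatase of chlorophyll breakdown, rose from 8.04, 8.38 and 7.93 to 20.0, 15.3 and 17.8 CPM (1.12 ± 0.12) and PAO, the oxygenase after it, from 66.9, 66.8 and 66.2 to 104, 103 and 99.7 CPM (0.61 ± 0.08). SAG12, the protease used as marker of late senescence, had no count in any of the 6 libraries. Cell cycle genes were lower in 9 of 14, but in 4 without all libraries of replicate 1, in 3 without those of replicate 2, and in 3 with volatiles. The cytokinesis gene KNOLLE fell from 77.6, 74.2 and 82.2 to 54.4, 54.7 and 62.6 CPM (-0.45 ± 0.10), a call lost without all libraries of replicate 1 (-0.41). Of 16 wall-loosening genes 7 were lower, 8 not called and 1 higher. The expansins EXPA8 (-1.35 ± 0.20) and EXPA11 (-1.19 ± 0.13) fell most, and XTH24, a xyloglucan enzyme, rose from 23.6, 35 and 28.1 to 135, 152 and 199 CPM (2.49 ± 0.17). Without wild-type replicate 1 there were 2 rises in this list.

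Few markers of organs and cell types were called. None of 8 root markers and none of 9 root hair genes was called, although a p above the threshold does not show that levels were equal. The summed level of the root markers was 222 to 235 CPM in wild type and 205 to 236 CPM in gp1-2, and no member was at 0 throughout. SHR, a factor of the root stele, was at 20.3, 24.8 and 23.4 CPM and 19.2, 20.9 and 20.3 CPM. In the stomatal lineage 2 of 6 were lower, where 17.2% of all genes tested were lower and 37.2% were called either way. The calls were led by SPCH, the factor that starts the lineage (-0.60 ± 0.12), but only 1 was lower without wild-type replicate 1. The list summed to 51.2 to 61.9 CPM in wild type and 40.5 to 48.3 CPM in gp1-2. In the trichome list 1 of 3 tested was lower, against the same shares, and none was without wild-type replicate 1 or 3 or without gp1-2 replicate 1 or 2. Without wild-type replicate 1, 1 root marker, SHR, was called lower (-0.26). SHR was also called lower with upper-quartile scaling (-0.27), and thinning gave 1 root marker called lower. Of 9 clock genes, RVE8, a morning factor, was the only call (0.79 ± 0.29, edgeR adjusted p 0.046), lost in 15 of 17 alternatives, in all 6 fits without a single library (0.67 to 0.87) among them. None of the 5 evening genes was called in the main fit, but 3 were lower with upper-quartile scaling. The replicate block, or leaving out all libraries of replicate 3, gave 2 lower. DESeq2, the 6 untreated libraries alone, and fits without gp1-2 replicate 1 or all libraries of replicate 1 gave 1 lower. TOC1, of the evening, was at 314, 366 and 345 CPM and 332, 354 and 284 CPM.

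**Figure D4:**
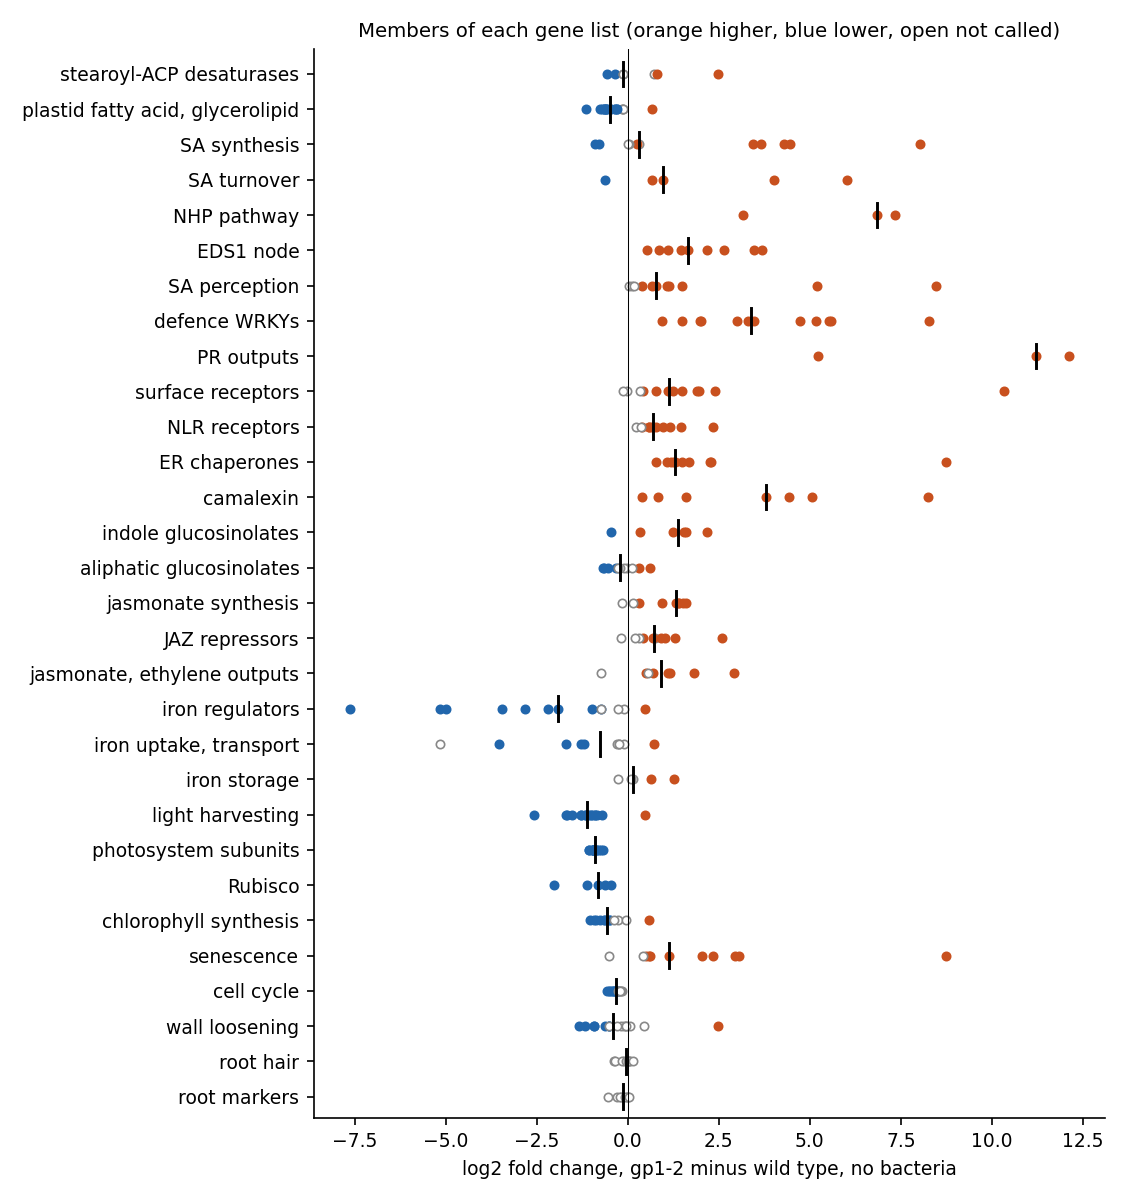
Each point is 1 tested gene of the list on the left, with its log2 fold change, gp1-2 minus wild type without bacteria; orange was called higher, blue lower and open points were not called, and bars are list medians. Lists of the salicylic acid route, receptors and chaperones lie to the right, photosynthesis and iron regulators to the left, and root lists around 0.

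The same genotype difference was measured in separate seedlings under the volatiles of GB03. This contrast shares no library with the untreated one, but both use the same estimate of spread. There 45.9% of genes were called. Of the 7723 genes called without bacteria, 6284 (81.4%) were called in the same direction with volatiles and 33 in the opposite direction. Among rises of at least 1 on the log2 scale 1428 of 1506 were called again, and among falls of that size 351 of 411. All 15 of the largest rises and all 15 of the largest falls were called the same way. A test of the difference between the conditions called 580 genes, 2.80% of those tested, of which 419 were also called without bacteria. This number was 348 without wild-type replicate 2, 331 and 346 without gp1-2 replicates 1 and 2, and 1038 with the replicate number as a block.

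Some named genes differed in size or direction between the conditions. PR5 was 5.22 ± 0.17 without bacteria and 7.21 ± 0.18 with volatiles, a difference of 1.99 ± 0.24 (edgeR adjusted p 0.00044), whereas PR1 was 11.22 ± 0.21 and 12.51 ± 0.21, with an uncalled difference of 1.29 ± 0.40 (edgeR adjusted p 0.1). WRKY40 was 1.49 without and 4.36 ± 0.43 with volatiles (difference 2.87 ± 0.54, edgeR adjusted p 0.01). LHCB1.4 and HEMA1, higher in gp1-2 without bacteria, were lower with volatiles (-0.90 ± 0.12 and -0.50 ± 0.09), and both differences were called (-1.37 ± 0.17 and -1.08 ± 0.12, edgeR adjusted p 0.00055 and 0.00037). IMA3 was -2.71 ± 0.21 with volatiles, a smaller fall than without (2.29 ± 0.36, edgeR adjusted p 0.0029). FAB2 was 1.87 ± 0.11 with volatiles, a smaller rise than without, and the difference was called (-0.60 ± 0.15, edgeR adjusted p 0.048).

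**Figure D5:**
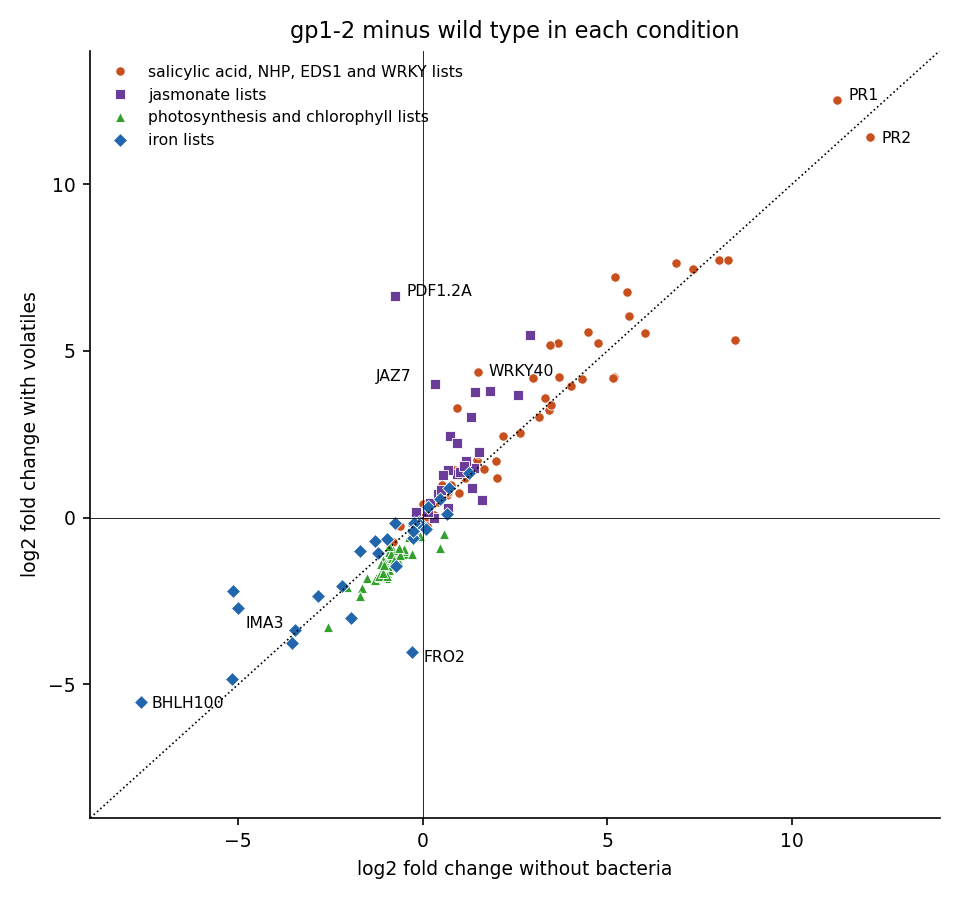
Each point is 1 gene of the lists in the legend, with its log2 fold change, gp1-2 minus wild type, without bacteria on the x axis and with volatiles on the y axis; the dotted line marks equal values. Most members of the salicylic acid lists lie near the line, most photosynthesis genes lie below it, and names stand beside some of the members.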

How the data were processed

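The deposited table holds counts of reads per gene for 12 libraries of whole seedlings, made by the authors; the submitters' processing notes name Trimmomatic 0.36, HISAT2 2.1.0, HTSeq 0.9.1 and the build TAIR10. The strand setting of the counting and the treatment of reads that match several genes are not given in the sources used here. Among named genes, AAD3, APR1, AT5G57760, COR15B, EDS1B, EDS5, EFR, FAD8, FER1, FER2, FER4, FLS2, ICS2, KNOLLE, LHCB1.3, LHCB2.4, NPR1, ORA47, PAO, PEPR2, PORB, RLP23, RLP39, RPS2, SARD1, SARD4, SOBIR1, TGA6, UGT74F1, UGT74F2, WRKY33, WRKY40, WRKY53 and ZAR1 overlap an annotated neighbour, so their reads cannot be fully told apart. Counts were tested with edgeR 4.0.16 (TMM scaling, filterByExpr, quasi-likelihood F test, 1 coefficient per group over all 12 libraries) with Benjamini-Hochberg adjustment over the 20736 genes tested, in R 4.3.3. Of these IDs 20654 had a name in the RefSeq table of assembly TAIR10.1, which also gave the upstream sequences. The ± is the log2 fold change, without its sign, over the root of F. It is an approximate standard error that can understate the error of genes near 0 counts in a group. The p-values measure the spread between the labelled biological replicates. Total counts of the 6 untreated libraries ranged from 11158051 to 18725561, and those of all 12 reached 25214934. For genes with 0 counts in a group a floor of 3 counts over its libraries was used, and with 1 to 3 counts the ratio has a 95% exact interval; both cover counting error only.

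Genes were named by rule: the 15 largest called rises and falls with a mean of at least 5 CPM and no overlap, members of the gene lists, and the 3 neighbours of FAB2 on each side. The comparison and the lists were chosen with earlier results of these data known, so no list is independent evidence. Samples with the same replicate number deviated together: the correlations of the wild-type with the gp1-2 deviations were 0.22, 0.11 and 0.17 for replicates 1, 2 and 3. The numbers were therefore taken to pair the samples in 1 alternative, the replicate block. The main fit has no term for the replicate number, so its calls, adjusted p and ± are unpaired. Alternatives were RLE and upper-quartile scaling, no filter, DESeq2 1.42.0, limma-voom 3.58.1, the 6 untreated libraries alone, the replicate block, thinning to the smallest library, and leaving out libraries.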

Additional observations from a re-analysis of the deposited data

Results flagged for a closer look

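Of 160 of the genes named, 26 had a genotype difference that itself differed between seedlings with and without volatiles (edgeR quasi-likelihood test of the interaction, Benjamini-Hochberg adjusted), 16 upward and 10 downward under volatiles. The 160 leave out genes named below only from gene families. Over all genes tested 580 were called, or 2.80%, and the genes named are not a random sample of these. The 580 became 120 without all libraries of replicate 1 and 18 without those of replicate 2. Values are the log2 fold change with volatiles minus that without, with 3 libraries in each of 4 groups. Higher values were found for ERF2 at 3.13, WRKY40 2.87, WRKY33 2.36, PR5 1.99, WRKY70 1.72, ZAT12 1.58, SARD1 1.1 and SOBIR1 0.83. The same held for JAZ1 at 1.72, VSP1 at 1.97, CYP79B2 at 1.4 and CYP83B1 at 0.58. IMA3 with 2.29, ZIF1 with 0.71 and AT3G54830 with 0.92 had smaller falls with volatiles, and AAD3 was at 1.04. Lower values were found for FRO2 at -3.73, CYP71A12 at -1.96, GSTF6 at -1.94, LHCB1.4 at -1.37, HEMA1 at -1.08, LOX2 at -1.07, NIMIN2 at -0.97, LHCB2.4 at -0.71 and FAB2 at -0.60. AT3G28510 was at -5.28, a value that rests on 1 count in untreated wild type. For ERF2, ZAT12, WRKY33, WRKY40 and WRKY70 the untreated wild-type libraries ranged widely, with replicate 1 the highest, and the part of that spread was not tested.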

How the results depend on the processing

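Among the counts of calls, 4156 genes higher and 3567 lower, the numbers stayed within 1.5 times under RLE scaling, upper-quartile scaling, no filter, DESeq2, limma-voom, the 6 untreated libraries alone, thinning and the replicate block, and no call shared with the main fit had the opposite sign under any of the 17 alternatives. Leaving out libraries gave 2856 to 4085 higher and 1925 to 3373 lower, and the lowest of each came without all libraries of replicate 2, which leaves 2 per group. Genes called the same way with volatiles, 6284, ranged from 3863 to 6117 on leaving out libraries. Under the pairing by replicate block there were 4491 higher, 4051 lower, 6932 called the same way and 1038 called for the difference between conditions, against 580; the last was 941 with DESeq2 and 18 to 831 on leaving out libraries, and was added after seeing the data. Among 160 of the genes named, 14 lost their call under at least 1 alternative and 5 of these on leaving out a single library, each named above. CRK7, WAK1, NAC036, GSTF2, DELTA-TIP, PIP2E and BBX14, named below from gene families, were not among the 160 and were not followed through the alternatives. PDF1.2A ranged from -1.87 to 3.41 on leaving out libraries, turning positive without those of replicate 1; its level in wild type lay almost wholly in that replicate. The block changed no call of these 160 genes except FER3 (-0.26, called) and RVE8 (0.80, lost). Of 1326 counts per list and direction 93 moved by over 1.5 times. Depth limits genes under about 2 CPM, such as IRT1, FRO2 and BHLH100, whose counts are few in every library.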

Other observations

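Further gene families, chosen after values were seen and taken from the symbols in the RefSeq table, can be read against 20.0% of all genes tested that were higher and 17.2% that were lower. Among 42 cysteine-rich receptor-like kinases tested, a family of surface proteins induced in defence, 29 were higher and 3 lower. CRK7 was at 0.203, 0 and 0.191 CPM in wild type and 57.6, 74.8 and 66.4 CPM in gp1-2 (8.97 ± 0.27), without overlap. Of 49 receptor-like proteins 35 were higher and 2 lower. Of 11 wall-associated kinases, counted together with WAK-like (WAKL) genes, 8 were higher and none was lower. WAK1, which binds pectin, rose from 5.00, 4.09 and 7.55 to 479, 462 and 413 CPM (6.38 ± 0.24). Among NAC factors 36 of 78 were higher and 2 lower. NAC036 rose from 2.64, 1.68 and 2.2 to 120.3, 126 and 84.1 CPM (5.66 ± 0.22). Glutathione transferases of the tau class were higher in 11 of 27 and those of the phi class in 8 of 13, with GSTF2 at 112, 97.6 and 101 CPM in wild type and 1621, 1817 and 2082 CPM in gp1-2 (4.15 ± 0.11). Members of these families lie in clusters of similar copies, and how reads were divided among them is not given.

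Other families had more called falls than rises in gp1-2. Of 19 aquaporins, the water channels of plasma membrane and vacuole, 14 were lower and none was higher. DELTA-TIP, of the vacuole, went from 162, 279.6 and 316 to 73.0, 102 and 107 CPM (-1.42 ± 0.22), and PIP2E, of the plasma membrane, from 109, 123 and 139 to 59.1, 67.8 and 68.6 CPM (-0.92 ± 0.12). Of 14 lower aquaporins 10 were also lower with volatiles, against 79.5% of all genes called lower without bacteria. Of 25 B-box factors, many of which act in light signalling, 9 were lower, 3 higher and 13 not called. BBX14 fell from 142, 189 and 256 to 59.1, 74.8 and 74.1 CPM (-1.49 ± 0.21). Of 54 SAUR genes, small auxin-induced proteins of cell expansion, 14 were lower, 7 higher and 33 not called. Their share called lower was 25.9%, against 17.2% of all genes tested. Genes of cold and abscisic acid responses were lower in 6 of 9. COR15B, a protein that protects chloroplast membranes in the cold, fell from 90.2, 68.3 and 109 to 28.7, 28.7 and 36.7 CPM (-1.51 ± 0.21), while RD29B, an abscisic acid target, rose from 0.879, 1.07 and 1.24 to 5.57, 5.09 and 5.82 CPM (2.38 ± 0.20). Without gp1-2 replicate 3, 2 genes of that list were higher. Among genes of sulphur shortage 1 of 11 was called, APR1, a reductase of sulphate assimilation, from 75.8, 59.3 and 87.7 to 125, 117 and 145 CPM (0.80 ± 0.13). A second member was called higher with no filter, DESeq2, limma-voom or the replicate block, and without wild-type replicate 3 or all libraries of replicate 3. Upper-quartile scaling gave 1 member called lower.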
